A study of Homo sapiens with 6 samples.

Results

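The 10 genes described here hold or open the gate to ferroptosis, and their transcripts were followed in MDA-MB-231BR cells with and without an shRNA against ACSS2. They are the cystine importer SLC7A11 and its heavy chain SLC3A2, the lipid peroxidase GPX4, the parallel suppressors AIFM2, DHODH and GCH1, and the lipid-remodelling enzymes ACSL4, LPCAT3, MBOAT1 and MBOAT2. All 10 were found by symbol among the 17721 genes of the expression table, and all 10 were abundant enough to be among the 13003 genes tested. MDA-MB-231BR is a subline of the human breast cancer cells MDA-MB-231 that homes to the brain. ACSS2 turns acetate into acetyl-CoA in the nucleus and cytosol, and the series title connects it with E2F1, SLC7A11 and ferroptosis.

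Ferroptosis is an iron-dependent cell death in which peroxides build up on polyunsaturated phospholipids of the membrane. Cells hold it off by importing cystine for glutathione, with which GPX4 reduces the lipid peroxides, and by quinone and pterin reductants that stop the radical chain. The supply of polyunsaturated phospholipids, set by acyl-CoA synthetases and lysophospholipid acyltransferases, decides how much there is to oxidise.

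RNA was sequenced from 3 libraries of cells stably expressing ACSS2 shRNA and 3 of cells stably expressing control shRNA, numbered 1 to 3 in both groups and labelled as biological replicates. Both groups were made by viral transduction and antibiotic selection. Neither the hairpin sequences nor the number of hairpins is given in the labels, which also do not say whether a line is a clone. Libraries held between 15048275 and 18608124 counts. Levels are CPM, counts scaled to library size with TMM factors, and levels of different genes are compared only in TPM, the authors' values per transcript length. Differences were tested with edgeR without the replicate number (unpaired fit) and with it as a block (paired fit), and calls needed an adjusted p (Benjamini-Hochberg, over all genes tested) under 0.05. A log2 fold change divides ACSS2 shRNA by control shRNA and is given with its standard error (SE).

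The targeted gene was checked first. ACSS2 had 11.1, 50.5 and 88.7 CPM in ACSS2 shRNA libraries 1, 2 and 3, against 76.25, 71.2 and 163.6 CPM in control shRNA libraries 1, 2 and 3. Each ACSS2 shRNA library was below the control library of its own number, but ACSS2 shRNA library 3 was above control libraries 1 and 2, so the groups overlapped. The unpaired fit did not call it (-1.05, SE 0.64, edgeR adjusted p = 0.504), and the authors' deposited table gives -1.07 with q = 0.772. In the paired fit it fell 2.48-fold (-1.31, SE 0.30, edgeR adjusted p = 0.00757), and by number it was -2.78, -0.50 and -0.88, so the size of the difference varied between the numbers. With DESeq2 and the block ACSS2 was not called (-1.38, adjusted p = 0.124), and leaving out replicate 1 gave -0.70 in the paired edgeR fit (adjusted p = 0.00249). Of the markers, VIM, the mesenchymal filament protein of this line, had 5446 to 6439 CPM. CDH1, the epithelial cadherin, was at 0 in 5 of 6 libraries, while the epithelial keratins KRT8 and KRT18 had 327.5 to 626.0 and 163.5 to 394.2 CPM over the 6. CDH2, the mesenchymal cadherin, had at most 0.194 CPM, and the epithelial EPCAM had 1.49 to 3.99 CPM. Of the 4 luminal breast markers, FOXA1 had 24.55 to 44.4 CPM, while ESR1, PGR and GATA3 had at most 5.30 CPM. GATA3 was lower in the paired fit (-0.95, SE 0.23, edgeR adjusted p = 0.0102). The 8 markers of immune, endothelial and brain cells summed to between 457 and 1015 CPM in ACSS2 shRNA libraries and between 524 and 1151 CPM in control libraries, most of it CD68. PTPRC and CD3E, of immune cells, and GFAP and AQP4, of astrocytes, had at most 0.517 CPM, and the endothelial PECAM1 had 2.20 to 7.79 CPM. SNAP25, of neurons, was at 0 in all 6, and MBP was lower in the paired fit (-0.41, SE 0.12, edgeR adjusted p = 0.0220). Their part in the results was not tested.

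Among the 10 genes, DHODH and SLC3A2 fell and ACSL4 rose in the paired fit, and none of the 10 was called in the unpaired fit. The other 7 genes, SLC7A11 and GPX4 among them, passed in neither. The 1 higher of 10 stands beside 12.7% of all tested genes called higher in the paired fit, and the 2 lower of 10 beside 12.4% called lower. In the unpaired fit 0.0692% of all genes (9) were called, and at an unadjusted p under 0.05 there were 1 of the 10 genes (DHODH) and 1820 of all genes. The median log2 fold change of the 10 was 0.02 unpaired and 0.01 paired, and that of all tested genes was 0.02 in both. With DESeq2, DHODH was called without the block, where 3.99% of all genes were called. With DESeq2 and the block, the same 3 genes were called, beside 9.02% of all genes higher and 11.2% lower. Between ACSS2 shRNA and control shRNA libraries 2 of the 10 genes did not overlap in CPM, both lower (DHODH and SLC3A2), where 9.63% of all genes lay below without overlap and 10.7% above. With 10 genes, these counts are near the background shares and are no result about the group of genes.

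**Figure D1:**
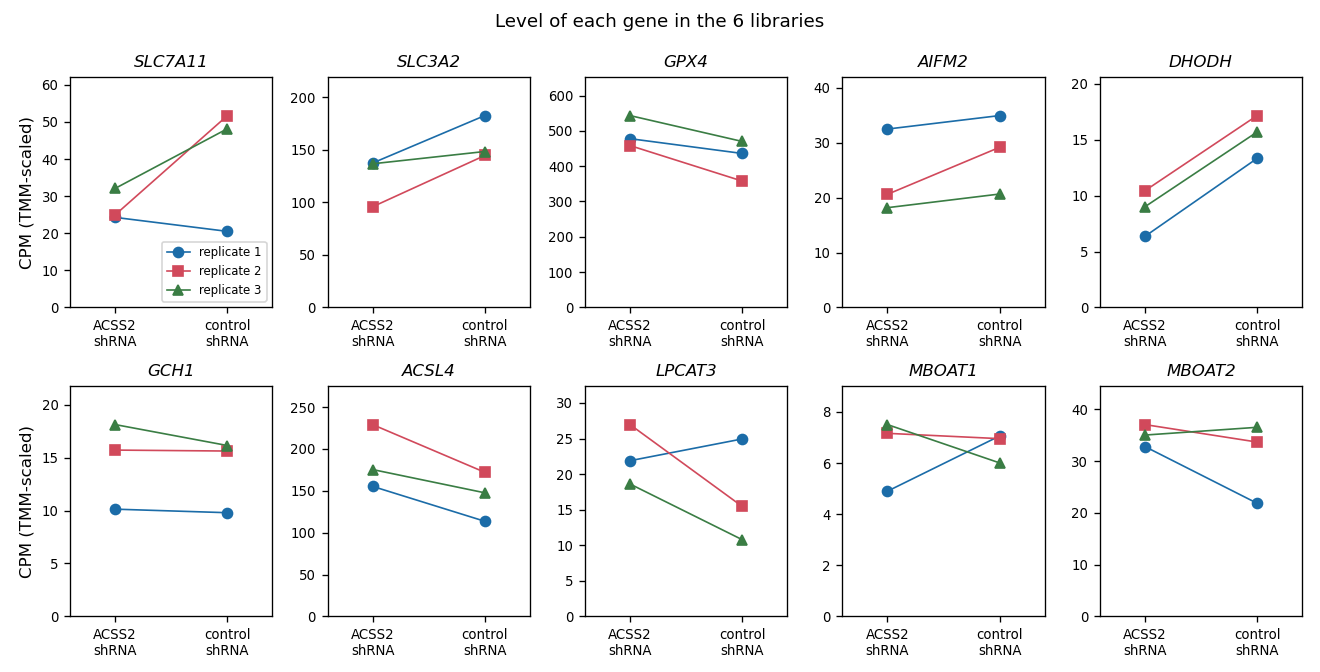
Level of each of the 10 genes in CPM (TMM-scaled, axes from 0) in the 3 ACSS2 shRNA libraries (left) and the 3 control shRNA libraries (right), with lines joining libraries of the same number. DHODH lies lower in all ACSS2 shRNA libraries (6.35 to 10.4 CPM) than in any control library (13.3 to 17.2 CPM), while SLC7A11 runs the other way in number 1 than in numbers 2 and 3.

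**Figure D2:**
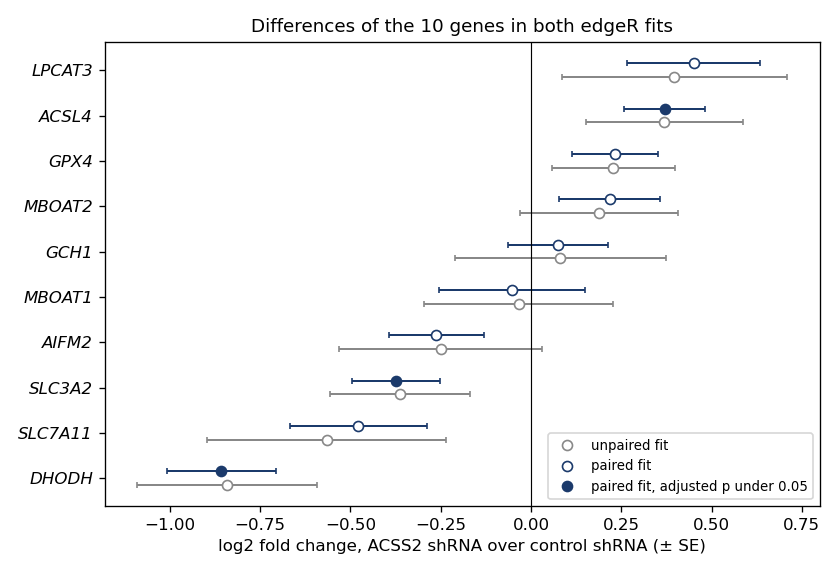
Log2 fold change (ACSS2 shRNA over control shRNA) of the 10 genes with its SE in the unpaired edgeR fit (grey) and the paired one (blue), filled where the adjusted p is under 0.05. DHODH (-0.86), SLC3A2 (-0.37) and ACSL4 (0.37) are filled in the paired fit only.

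Per transcript length the 10 genes covered a wide range, and the top of the order did not depend on the group. GPX4 stood first with 1056 ± 40.1 TPM in ACSS2 shRNA and 836.5 ± 80.1 TPM in control shRNA cells (SD, n = 3 each). SLC3A2 followed with 119 ± 22.04 TPM in ACSS2 shRNA and 140 ± 14.7 TPM in control shRNA cells. ACSL4 had 69.9 ± 16.1 TPM in ACSS2 shRNA and 50.4 ± 12.3 TPM in control shRNA cells. Each of these 3 was apart from its neighbours in every library of its group. LPCAT3, MBOAT2, AIFM2, GCH1, SLC7A11 and DHODH lay between 5.12 and 23.2 TPM in ACSS2 shRNA cells and between 4.85 and 18.7 TPM in control cells, and each overlapped the next of these 6 in the order. MBOAT1 was lowest, with 4.29 ± 0.964 TPM in ACSS2 shRNA and 3.77 ± 0.522 TPM in control shRNA cells. DHODH had rank 9 of 10 in ACSS2 shRNA and rank 7 in control shRNA cells. Rounded counts of the 10 genes ran from 88 for MBOAT1 to 8755 for GPX4, so the low genes carry more counting error.

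SLC7A11 is the transporter subunit of system xc-, which brings cystine in against glutamate. It had 24.3, 24.95 and 32.1 CPM in ACSS2 shRNA libraries 1, 2 and 3, against 20.5, 51.7 and 48.2 CPM in control libraries 1, 2 and 3. Control library 1 was the lowest of all 6 and control libraries 2 and 3 the highest, so the 3 ACSS2 shRNA libraries lay inside the range of the control group. By number the log2 difference was 0.24, -1.05 and -0.59. The unpaired fit gave a log2 fold change of -0.57 (SE 0.33, edgeR adjusted p = 0.484) and the paired one -0.48 (SE 0.19, adjusted p = 0.0840). Number 1, in which ACSS2 mRNA differed most, was the one in which SLC7A11 was not lower. Whether the differences of these genes are related was not tested, and the labels do not say what the numbers stand for.

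This value depended on which libraries were in the fit. Without both libraries of replicate 1 the paired log2 fold change of SLC7A11 was -0.82 (edgeR adjusted p = 0.00168). Leaving out replicate 2 instead gave -0.22 (edgeR adjusted p = 0.518). Unpaired with a single library left out, it ranged from -0.88 (without control library 1) to -0.37 (without control library 2), and never passed. With no low-count filter the paired fit called it (-0.50, edgeR adjusted p = 0.0230). The authors' deposited table gives -0.59 with q = 0.565.

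The scale mattered for SLC7A11 as well. In TPM it had 7.44, 5.59 and 7.84 in ACSS2 shRNA libraries, against 4.85, 10.45 and 11.53 in control libraries, and the log2 fold change of limma on log2(TPM + 1) was -0.26 (adjusted p = 0.387 with the replicate block). The length by which the authors' estimate divides its reads, taken from the ratio of count to TPM relative to the gene's mean, was 0.843, 1.148 and 0.950 in ACSS2 shRNA libraries 1, 2 and 3. It was 0.955, 1.21 and 0.941 in control libraries 1, 2 and 3. Both libraries of number 2 were long, and the highest was 1.44 times the lowest. That span is at the 98.9th percentile of the 10694 genes with at least 50 counts in each library, whose median span was 1.02, so the estimated mix of SLC7A11 transcripts differed between libraries more than that of most genes. MBOAT2 (97.3rd percentile) and MBOAT1 (92.8th) were also high in this measure, and GPX4, ACSL4 and LPCAT3 were at or below the 12.4th percentile.

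**Figure D3:**
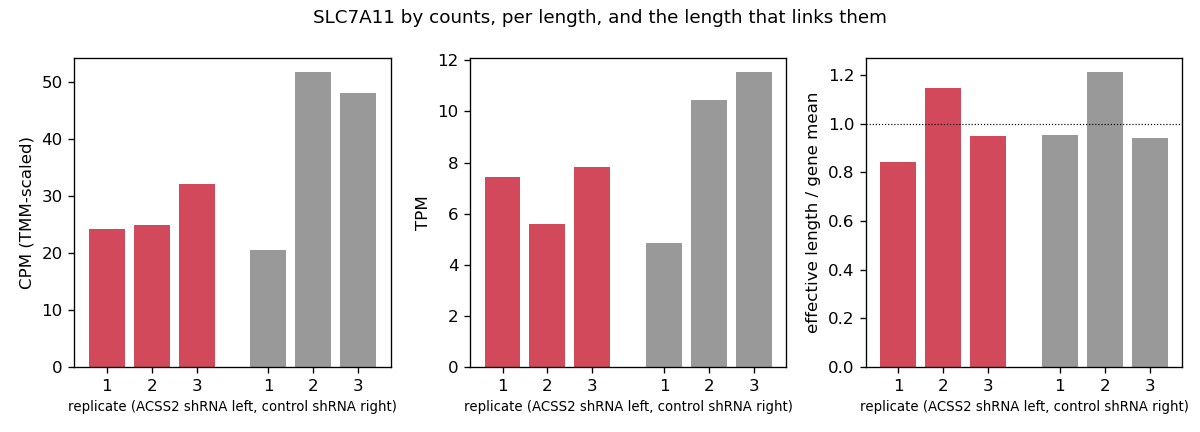
SLC7A11 in each library (ACSS2 shRNA red, control shRNA grey, numbers 1 to 3) as CPM, as TPM and as the effective length behind the TPM relative to the mean of the gene, with bars from 0. Control library 1 is the lowest in both units, and the libraries of number 2 have the longest effective length (1.148 and 1.21).

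SLC7A11 (gene ID 23657) is listed on chromosome 4 from 138140032 to 138311434 of GRCh38. The table puts it on the forward strand, while GENCODE places it on the reverse strand, and the same holds for AIFM2, GCH1 and LPCAT3. In GENCODE 8.97% of its exonic bases (865 of 9645) are shared with the antisense gene SLC7A11-AS1, and neither labels nor table say whether reads were counted by strand. Across the 6 libraries the 3 tested genes with the most similar log2 CPM were WDR75 (Pearson r = 0.993), COX7A2 (r = 0.987) and RALGPS1 (r = 0.980) among 10695 genes that averaged 5 CPM or more. RALGPS1, for example, had 4.79, 5.15 and 5.52 CPM in ACSS2 shRNA libraries and 4.50, 7.87 and 8.33 CPM in control libraries. With 6 points chosen from so many genes these values are a description only.

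The hexamer TGGGTC, which was picked in earlier work on these data, was found in 29.4% of 12408 annotated 3′ UTRs, 1 per tested gene, and the length of the 3′ UTR was not matched. Of the 10 genes SLC7A11 held it 3 times in 7859 bases and GCH1 once in 2009 bases, and the other 8 genes, DHODH and SLC3A2 included, held none. ACSS2, the target of the hairpin, held it once in 748 bases. The sites are shown because SLC7A11 and GCH1 differ by them from the other 8 genes, with the hexamer in capitals and 12 bases on either side, read from GENCODE transcripts on the reverse strand of GRCh38.
SLC7A11, base 2064 of the 3′ UTR (chr4:138169875-138169904): gaacctaacgttTGGGTCtctgagtgaatt
SLC7A11, base 4313 (chr4:138167626-138167655): tagagtagataaTGGGTCaccttgatagcc
SLC7A11, base 6596 (chr4:138165343-138165372): cggcaaacttatTGGGTCttcattttctga
GCH1, base 1125 of the 3′ UTR (chr14:54842875-54842904): ttgtggtctatgTGGGTCttgtcctcattg
The bases around the hexamer differ at each of these sites. A match of these letters is a description, and long 3′ UTRs hold more of any hexamer.

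SLC3A2 is the heavy chain (4F2hc, CD98) that carries SLC7A11 and other light chains to the plasma membrane. It had 137.4, 95.8 and 136.7 CPM in ACSS2 shRNA libraries 1, 2 and 3, against 182.6, 144.6 and 148.4 CPM in control libraries 1, 2 and 3. All ACSS2 shRNA libraries lay below all control libraries, and it was lower in each number (log2 difference -0.41, -0.59 and -0.12). It fell 1.30-fold in the paired fit (log2 fold change -0.37, SE 0.12, edgeR adjusted p = 0.0387) and was -0.36 unpaired (SE 0.20, adjusted p = 0.448). The call was lost without replicate 1 (-0.36, adjusted p = 0.0617) and without replicate 2 (-0.30, adjusted p = 0.300). It was also lost on the log2(TPM + 1) scale with the block (-0.25, limma adjusted p = 0.111), where the groups overlap. In TPM there were 15.8 to 18.6 SLC3A2 transcripts for each of SLC7A11 in ACSS2 shRNA libraries, and 32.3, 13.0 and 11.1 in control libraries 1, 2 and 3, so that control library 1 lay above all ACSS2 shRNA libraries and control libraries 2 and 3 below them.

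SLC3A2 (gene ID 6520) occupies chromosome 11 between 62856008 and 62889344, and RefSeq lists more than 1 start site for it. The windows with a searched motif are shown, each from 250 bases before the start to 50 after it, on the forward strand of GRCh38.p14. Capitals mark an E2F word at -51 in the first, and in the second an antioxidant response element at -37 and a C/EBP-ATF response element at 38, counted from the start site as 1.
SLC3A2, distal start (chr11:62855859-62856158): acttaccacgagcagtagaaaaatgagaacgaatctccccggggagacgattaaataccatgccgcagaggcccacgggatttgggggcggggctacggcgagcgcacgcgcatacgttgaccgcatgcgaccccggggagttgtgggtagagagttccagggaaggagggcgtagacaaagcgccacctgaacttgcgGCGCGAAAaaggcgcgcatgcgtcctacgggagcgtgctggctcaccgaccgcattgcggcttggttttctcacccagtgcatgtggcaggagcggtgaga
SLC3A2, proximal start (chr11:62881449-62881748): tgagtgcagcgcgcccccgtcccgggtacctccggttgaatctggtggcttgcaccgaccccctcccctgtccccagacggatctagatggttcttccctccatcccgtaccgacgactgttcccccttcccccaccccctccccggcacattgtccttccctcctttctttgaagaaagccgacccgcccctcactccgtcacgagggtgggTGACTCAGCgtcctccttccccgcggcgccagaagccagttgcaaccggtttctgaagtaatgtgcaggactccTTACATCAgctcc
The motifs searched on both strands were the E2F words TTTCCCGC, TTTGGCGC, TTTCGCGC and TTTGCCGC (in 3.31% of 35116 RefSeq promoter windows), TGACNNNGC for the antioxidant response element (13.3%) and TGATGNAA for the C/EBP-ATF element (3.62%). TGACGT, the core of the cAMP response element (7.98%), was searched too. Windows were at hand for 7 of the 10 genes, while SLC7A11, GCH1 and MBOAT1 had none. In windows not shown, AIFM2 held an antioxidant response element at -22 and ACSL4 a cAMP response element core at -191. DHODH, LPCAT3 and MBOAT2 held none of the searched motifs. A match says only that these letters are in the window.

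Around system xc-, of the other SLC7 light chains that pair with SLC3A2 3 of 5 were tested, and 1 of these fell in the paired fit (12.4% of all tested genes did). It was SLC7A5 (LAT1), the importer of large neutral amino acids, at 274 ± 86.5 CPM in ACSS2 shRNA and 621 ± 201 CPM in control shRNA cells (SD, n = 3 each). The paired fit gave -1.18 (SE 0.18, edgeR adjusted p = 0.000679), and the groups did not overlap. SLC7A6 did not pass (0.08, adjusted p = 0.622). Of 13 tested genes for cysteine and glutathione supply, 2 rose, none fell and 11 were not called, beside 12.7% of all tested genes higher and 12.4% lower. CHAC1, which degrades glutathione, was at 22.5 ± 3.38 CPM in ACSS2 shRNA and 12.2 ± 3.65 CPM in control shRNA cells (0.91, SE 0.16, edgeR adjusted p = 0.00143), without overlap. GGT1, which cleaves extracellular glutathione, rose by 0.50 (SE 0.16, edgeR adjusted p = 0.0386) with overlapping groups.

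GPX4 is the selenoprotein that reduces phospholipid peroxides in the membrane. It had 478, 458 and 543 CPM in ACSS2 shRNA libraries 1, 2 and 3, against 436, 358 and 470 CPM in control libraries 1, 2 and 3. It was higher in each number, by 0.13, 0.36 and 0.21 on the log2 scale, and the groups overlapped because control library 3 lay above ACSS2 shRNA library 2. Both fits gave a log2 fold change of 0.23, with SE 0.17 unpaired (edgeR adjusted p = 0.596) and SE 0.12 paired (adjusted p = 0.170). In TPM the groups did not overlap, at 1062, 1013 and 1092 in ACSS2 shRNA libraries and 847, 752 and 911 in control libraries. On that scale limma with the block called it (0.34, adjusted p = 0.0308), but the median of all genes was 0.11 there, against 0.02 in CPM. The tested genes most like it over the 6 libraries were TANGO2, MLLT6 and LZTS2 (r = 0.993, 0.991 and 0.991).

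GPX4 (gene ID 2879) occupies chromosome 19 between 1103926 and 1106789, and RefSeq lists several starts for it. The window with an E2F word is shown on the forward strand of GRCh38.p14, with the cAMP core at -162 and the E2F word at 4 in capitals.
GPX4 (chr19:1103807-1104106): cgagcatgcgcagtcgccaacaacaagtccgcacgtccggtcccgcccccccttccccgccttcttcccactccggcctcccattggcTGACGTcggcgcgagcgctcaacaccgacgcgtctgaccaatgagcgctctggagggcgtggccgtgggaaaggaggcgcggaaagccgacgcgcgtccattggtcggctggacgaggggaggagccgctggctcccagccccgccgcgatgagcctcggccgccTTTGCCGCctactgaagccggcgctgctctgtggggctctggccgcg
Of the 2 genes with an E2F word in a window, GPX4 was higher and SLC3A2 lower in ACSS2 shRNA cells in each number.

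GPX4 needs the machinery that inserts selenocysteine. Of 11 genes of selenoprotein synthesis, 3 rose, 1 fell and 7 were not called in the paired fit, where 12.7% of all tested genes rose and 12.4% fell. SECISBP2, which binds the selenocysteine insertion element, was at 50.8 ± 8.23 CPM in ACSS2 shRNA and 30.7 ± 3.69 CPM in control shRNA cells (0.72, SE 0.13, edgeR adjusted p = 0.00242), without overlap. LRP8, a receptor for selenoprotein P, fell by 0.58 (SE 0.13, edgeR adjusted p = 0.00758), without overlap in CPM but with overlap in TPM. Of 8 tested genes for other glutathione peroxidases and peroxide-removing enzymes, 4 fell and none rose, where 12.4% of all tested genes fell and 12.7% rose. PRDX6, a peroxiredoxin that acts on phospholipid peroxides, was at 132 ± 11.3 CPM in ACSS2 shRNA and 177 ± 6.08 CPM in control shRNA cells (-0.42, SE 0.11, edgeR adjusted p = 0.0168), without overlap. MGST1, a microsomal glutathione transferase, fell by 0.40 (SE 0.11, edgeR adjusted p = 0.0203) with overlap.

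DHODH, the mitochondrial dihydroorotate dehydrogenase, reduces ubiquinone in the inner membrane while making pyrimidines. Of the 10 genes it differed most. It had 6.35, 10.4 and 8.996 CPM in ACSS2 shRNA libraries 1, 2 and 3, against 13.3, 17.2 and 15.7 CPM in control libraries 1, 2 and 3. All ACSS2 shRNA libraries lay below all control libraries in CPM and in TPM, and the log2 difference was -1.07, -0.72 and -0.80 by number. It fell 1.81-fold in the paired fit (log2 fold change -0.86, SE 0.15, edgeR adjusted p = 0.00169), and was -0.84 unpaired (SE 0.25, edgeR adjusted p = 0.199). It was the sole one of the 10 that passed in all 9 fits with the block, which include 3 with a replicate number left out (adjusted p from 8.25e-05 to 0.00541). These 9 fits reuse the same libraries and are no independent repeats, and those 3 rest on 2 libraries per group. Without the block it passed in 1 of 15 fits, with DESeq2 (adjusted p = 0.0474). The authors' deposited table gives it -0.87 with q = 0.0612.

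DHODH (gene ID 1723) occupies chromosome 16 between 72006541 and 72034296. No GENCODE exon of another gene overlaps its exons. The deposited table gives wider spans, in which TXNL4B covers DHODH, and TXNL4B fell in the paired fit as well (-0.39, SE 0.13, edgeR adjusted p = 0.0456). Whether reads were shared was not tested. DHODH counts were between 114 and 301. Its promoter window is shown because it had the largest difference among the 10. It is all in lower case, since none of the searched motifs was found, on the forward strand of GRCh38.p14.
DHODH (chr16:72008494-72008793): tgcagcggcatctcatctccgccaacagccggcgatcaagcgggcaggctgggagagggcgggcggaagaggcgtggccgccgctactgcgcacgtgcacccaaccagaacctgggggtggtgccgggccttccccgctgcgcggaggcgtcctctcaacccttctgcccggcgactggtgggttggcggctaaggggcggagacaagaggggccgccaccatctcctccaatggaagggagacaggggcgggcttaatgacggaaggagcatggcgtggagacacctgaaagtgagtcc
The other enzymes of de novo pyrimidine synthesis, CAD (-0.30, adjusted p = 0.0931) and UMPS (-0.01, adjusted p = 0.965), did not pass in the paired edgeR fit.

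AIFM2 (FSP1) reduces ubiquinone and vitamin K outside mitochondria. Its level ran from 18.2 to 32.5 CPM in ACSS2 shRNA libraries and from 20.7 to 35.0 CPM in control libraries. In CPM it was lower in each number (log2 difference -0.11, -0.50 and -0.19), but in TPM number 1 gave 0.09. The groups overlapped almost fully, since number 1 was high and number 3 low in both. It did not pass (-0.25 unpaired, edgeR adjusted p = 0.741, and -0.26 paired, SE 0.13, adjusted p = 0.161). The replicate numbers differed for it (edgeR adjusted p = 0.00586), with a mean of 33.7, 24.9 and 19.4 CPM for numbers 1, 2 and 3.

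The quinones that AIFM2 and DHODH reduce have to be made first. Of 17 genes of ubiquinone and vitamin K supply 5 fell, none rose and 12 were not called in the paired fit, beside 12.4% of all tested genes lower and 12.7% higher. Their median log2 fold change was -0.13, against 0.02 for all genes. COQ2, which joins the polyprenyl tail to the ring, was at 8.40 ± 2.19 CPM in ACSS2 shRNA and 19.97 ± 5.55 CPM in control shRNA cells (-1.24, SE 0.14, edgeR adjusted p = 0.000135), without overlap. PDSS1, a subunit of the synthase of that tail, fell by 0.77 (SE 0.18, edgeR adjusted p = 0.00713) with overlapping groups. NQO1, a quinone reductase that was named after its values were seen, fell by 0.61 (SE 0.15, edgeR adjusted p = 0.0114) with overlapping groups. NQO1 was not among the 2 genes of the list with the smallest paired p. None of the 17 was called in the unpaired fit.

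GCH1 makes the first committed step of tetrahydrobiopterin, a radical-trapping pterin. It had 10.1, 15.7 and 18.1 CPM in ACSS2 shRNA libraries 1, 2 and 3, and 9.79, 15.6 and 16.1 CPM in control libraries 1, 2 and 3. Libraries of the same number were within 0.17 on the log2 scale, and number 1 was low in both groups. It did not pass (0.08 in both fits, edgeR adjusted p = 0.933 unpaired and 0.727 paired, SE 0.14), while the replicate numbers differed (edgeR adjusted p = 0.00760). None of 5 tested genes of tetrahydrobiopterin synthesis passed in the paired edgeR fit, PTS (-0.44, adjusted p = 0.0629) and PCBD1 (-0.21, adjusted p = 0.199) among them. With 12.7% of all tested genes called higher and 12.4% lower there, none of 5 says little about this list.

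ACSL4 activates arachidonic and adrenic acid for phospholipids, and cells without it resist ferroptosis. It had 155, 229 and 175 CPM in ACSS2 shRNA libraries 1, 2 and 3, against 114, 172 and 148 CPM in control libraries 1, 2 and 3. It was higher in each number, by 0.45, 0.41 and 0.25 on the log2 scale, but control library 2 lay above ACSS2 shRNA library 1, so the groups overlapped. It rose 1.29-fold in the paired fit (log2 fold change 0.37, SE 0.11, edgeR adjusted p = 0.0289) and was 0.37 unpaired (SE 0.22, adjusted p = 0.485). The call was lost without replicate 1 (0.32, adjusted p = 0.0598) and without replicate 2 (0.32, adjusted p = 0.266). The replicate numbers also differed (edgeR adjusted p = 0.0148), with number 2 highest. ACSL4 (gene ID 2182) lies on the X chromosome from 109581755 to 109742537, on the reverse strand.

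Among the other 4 long-chain acyl-CoA synthetases 1 rose and 2 fell (12.7% and 12.4% of all tested genes). ACSL3, which activates monounsaturated fatty acids, was at 118 ± 11.4 CPM in ACSS2 shRNA and 84.7 ± 13.96 CPM in control shRNA cells (0.49, SE 0.11, edgeR adjusted p = 0.00777). ACSL5 was at 60.3 ± 5.89 CPM in ACSS2 shRNA and 88.1 ± 21.5 CPM in control shRNA cells (-0.53, SE 0.12, edgeR adjusted p = 0.00646). Neither overlapped between the groups in CPM, but in TPM ACSL5 did. Of 9 tested genes of fatty acid desaturation and ether lipid synthesis 1 rose and 1 fell, against the same shares of all genes. FADS1, the delta-5 desaturase, rose by 0.45 (SE 0.15, edgeR adjusted p = 0.0401) with overlap, and ELOVL5, an elongase of polyunsaturated fatty acids, fell by 0.53 (SE 0.13, edgeR adjusted p = 0.0103) without overlap.

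LPCAT3 places the polyunsaturated acyl chains that ACSL4 has activated into phospholipids. It had 21.9, 26.96 and 18.6 CPM in ACSS2 shRNA libraries 1, 2 and 3, against 24.9, 15.45 and 10.8 CPM in control libraries 1, 2 and 3. It was higher in numbers 2 and 3 (0.80 and 0.79 on the log2 scale) and not in number 1 (-0.19), the reverse of SLC7A11 in each number. Unpaired, LPCAT3 differed by 0.40 on the log2 scale (SE 0.31, edgeR adjusted p = 0.615), and paired it was 0.45 (SE 0.18, adjusted p = 0.0900). Leaving out replicate 1 raised the paired one to 0.79 (edgeR adjusted p = 0.00253). On the log2(TPM + 1) scale it passed with the block (0.53, limma adjusted p = 0.0280), where the median of all genes was 0.11. In GENCODE 65.6% of its exonic bases (3100 of 4725) overlap EMG1 on the opposite strand. The deposited table puts LPCAT3 on the forward strand, which is the strand of EMG1 in GENCODE. EMG1 fell in the paired fit (-0.62, SE 0.15, edgeR adjusted p = 0.0105), and without strand in the counting the reads of the pair cannot be told apart, so the value of LPCAT3 is uncertain.

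MBOAT1 and MBOAT2 place monounsaturated chains in phospholipids, which leaves less to oxidise. MBOAT1 ran from 4.90 to 7.51 CPM in ACSS2 shRNA libraries and from 6.01 to 7.06 CPM in control libraries, and did not pass (-0.03 unpaired, edgeR adjusted p = 0.971, and -0.05 paired, SE 0.20, adjusted p = 0.879). Its sign depended on the scale, with 0.14 in log2(TPM + 1). MBOAT2 had 32.8, 37.1 and 35.05 CPM in ACSS2 shRNA libraries, and 21.9, 33.7 and 36.55 CPM in control libraries, where library 1 was low. It did not pass (0.19 unpaired, edgeR adjusted p = 0.747, and 0.22 paired, SE 0.14, adjusted p = 0.275), and without control library 1 it was -0.0045 unpaired. Of 10 other lysophospholipid acyltransferases 1 rose and none fell, against 12.7% and 12.4% of all tested genes, with a median log2 fold change of 0.27. AGPAT4 rose by 0.43 (SE 0.13, edgeR adjusted p = 0.0311), and MBOAT7 did not pass (0.34, adjusted p = 0.0693).

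None of the 6 tested lipid peroxidation enzymes passed, with 0.22 for CYB5R1 (edgeR adjusted p = 0.208) and 0.29 for PLA2G6 (adjusted p = 0.223) in the paired fit. There 12.7% of all tested genes were called higher and 12.4% lower, so none of 6 says little about this list. The lipoxygenase ALOX12 was at 0 in all 6 libraries, and ALOX15 in 5 of 6. ALOX5 had at most 0.558 CPM in ACSS2 shRNA and 0.775 CPM in control shRNA libraries.

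Of 17 transcription factors and other regulators of the 10 genes, 2 rose and 4 fell in the paired fit, against 12.7% and 12.4% of all tested genes. E2F1, which the series title places between ACSS2 and SLC7A11, had 31.5, 28.5 and 17.9 CPM in ACSS2 shRNA libraries 1, 2 and 3, against 61.45, 40.4 and 18.3 CPM in control libraries 1, 2 and 3. In CPM it was lower in numbers 1 and 2 (log2 difference -0.97 and -0.50) and nearly equal in number 3 (-0.03, and 0.02 in TPM). It fell in the paired fit (-0.52, SE 0.16, edgeR adjusted p = 0.0305) but not in the unpaired one (adjusted p = 0.537). That call ended without replicate 1 (-0.29, edgeR adjusted p = 0.172), without replicate 2 (adjusted p = 0.0545) and on the log2(TPM + 1) scale (-0.38, limma adjusted p = 0.0762). By number, E2F1 differed most in number 1, where SLC7A11 differed by 0.24, and least in number 3, where SLC7A11 differed by -0.59. A relation between the differences of E2F1 and SLC7A11 was not tested. CD44, the surface protein that stabilises the SLC7A11 protein through OTUB1, fell to 529 ± 60.1 CPM in ACSS2 shRNA cells, against 781 ± 41.8 CPM in control shRNA cells (-0.57, SE 0.12, edgeR adjusted p = 0.00598), without overlap.

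Over the 12 lists of neighbouring genes, 10 of 105 tested genes rose and 18 fell in the paired fit, beside 12.7% of all tested genes higher and 12.4% lower. The unpaired fit called none of the 105. In these bulk libraries fewer cells of a kind and less RNA in each cell cannot be told apart.

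**Figure D4:**
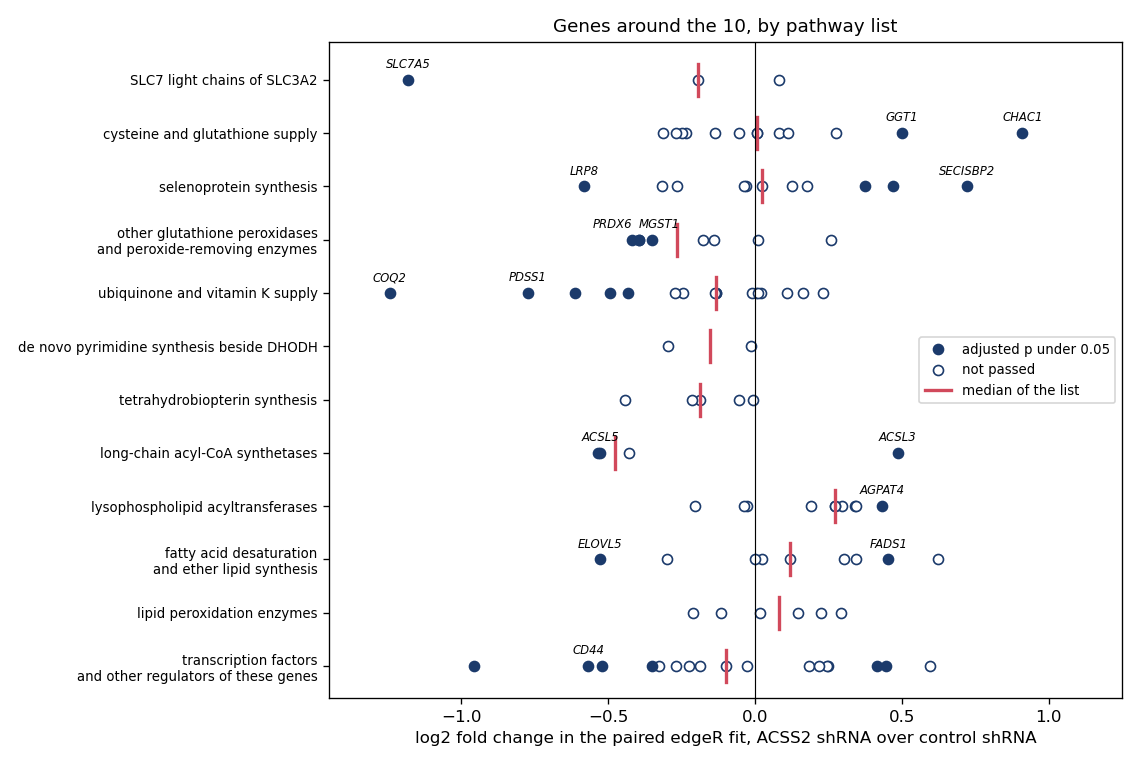
Log2 fold change (ACSS2 shRNA over control shRNA) in the paired edgeR fit of the tested genes around the 10, by list, filled where the adjusted p is under 0.05, with the median of each list as a red bar. Of 17 tested genes of ubiquinone and vitamin K supply 5 are called, all lower, led by COQ2 (-1.24). Of 8 tested peroxide-removing enzymes 4 are called, all lower. In this fit 12.4% of all tested genes were lower and 12.7% higher, and the unpaired fit called no gene of the lists. CHAC1 (0.91) and SECISBP2 (0.72) are the highest named genes.

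Levels also differed between the replicate numbers. In the paired fit 4 of 10 (SLC7A11, AIFM2, GCH1 and ACSL4) differed between the numbers, beside 38.7% of all tested genes. SLC7A11 averaged 22.4, 38.3 and 40.1 CPM over both libraries of numbers 1, 2 and 3 (edgeR adjusted p = 0.0358), GCH1 9.96, 15.7 and 17.1 CPM, and ACSL4 134, 201 and 161.5 CPM. SLC7A11 and GCH1 were thus lowest in number 1 and AIFM2 highest there. The labels give the numbers as a batch tag and do not say what they stand for.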

How the data were processed

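The deposited table holds expected counts, TPM and the authors' own comparison (log2 fold change, p-value and q-value). Per the submitters' processing notes, HISAT, Bowtie2 and RSEM were used by the authors. Neither the annotation nor the counting strand is stated there. Coordinates are on GRCh38, per the file's chromosome names. Before use, 565 lines of spilled annotation text were left out. Expected counts were rounded and tested in R 4.3.3 with edgeR 4.0.16 (quasi-likelihood F test, TMM, filterByExpr with minimum count 10 and minimum total 15), with Benjamini-Hochberg adjustment over 13003 genes. The SE was taken from the log2 fold change and F. Same-numbered libraries deviated together (r = 0.716, 0.494 and 0.740 across genes, against a required 0.1), so the block was used in the paired fit. Deviations were taken from the mean of each group. A positive r for the same number therefore pushes r for different numbers (at most -0.00998) below 0, and those values are no separate support for the pairing. The labels tag the number as a batch. Alternatives were DESeq2 1.42.0, limma 3.58.1 (with a mean-variance trend) on log2(TPM + 1) and log2(TPM + 0.1), RLE factors, no filter and left-out libraries. The fits were tested on simulated data. The 10 genes, the 12 lists and the tests were chosen with earlier results of these data known. From each list the 2 tested genes with the smallest paired p are named, beside the 10 genes, ACSS2 and E2F1, apart from 1 gene that is not reported here. GPX2 and GPX7 of the lists were not found. Promoter windows are from RefSeq (GRCh38.p14), and 3′ UTRs and exon overlaps from GENCODE.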

Additional observations from a re-analysis of the deposited data

How the results depend on the processing

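With the replicate block (the paired fit) 1 of the 10 genes was called higher and 2 lower, against 0 and 0 without it. With the block, DESeq2 and RLE factors each gave 1 higher and 2 lower, no low-count filter 1 and 3, and limma on log2(TPM + 1) and on log2(TPM + 0.1) 3 and 1. DESeq2 without the block gave 0 and 1. With libraries or replicate numbers left out, the counts were 0 to 1 higher and 0 to 2 lower. Over all genes, the paired fit called 1657 higher and 1608 lower, against 3 and 6 unpaired. The counts were 214 and 305 with DESeq2, 1150 and 1428 with DESeq2 and the block, and 1426 and 1691 with RLE and the block. Without a filter they were 12 and 27, and 1599 and 1895 with the block. With limma they were 6 and 6 at either pseudocount, and with the block 2302 and 1071 (+ 1) or 2269 and 1055 (+ 0.1). Leave-outs without the block gave 0 to 1 higher and 0 to 5 lower, and with it 1382 and 1383 (without replicate 1), 664 and 917 (without replicate 2) and 1555 and 1554 (without replicate 3). The lists of neighbouring genes went to 28 calls with the block, against 0.

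The sign turned for 3 of the 10 genes, none of them called. GCH1 was -0.10 without ACSS2 shRNA replicate 3 and -0.12 without control shRNA replicate 1, and leave-outs without the block ranged up to 0.28. MBOAT1 was 0.14 and 0.17 with limma at the 2 pseudocounts, 0.12 without ACSS2 shRNA replicate 1, 0.0081 without control shRNA replicate 1 and 0.17 without replicate 1, with or without the block, with -0.22 as the lowest of the leave-outs without the block. MBOAT2 was -0.0045 without control shRNA replicate 1 and at most 0.33 in the other leave-outs without it. Of 276 log2 fold changes of the 10 genes, ACSS2 and E2F1 under an alternative, 223 kept their direction and side of the threshold of the unpaired fit, 42 newly passed and 11 turned. The causes were not tested. The 3 libraries per group limit all tests, and MBOAT1 and DHODH have the fewest counts. The SE comes from the fitted edgeR model and is not the plain spread of the differences by number. For ACSS2, for example, the paired SE was 0.30 while the log2 differences by number were -2.78, -0.50 and -0.88.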
